A study of Mus musculus with 9 samples.

Results

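Mitochondrial fatty acid oxidation was followed through 10 mouse genes: Cpt1b, Cpt2, Slc25a20, Acadvl, Acadl, Acadm, Hadha, Hadhb, Acaa2 and Ech1. A gene was represented by every probe set, the group of array probes summarised to 1 value, whose single symbol in the platform annotation was that gene. This gave 9 probe sets, 1 for each of 9 genes, among the 33793 on the array. The only probe set that listed Cpt1b, the muscle form of the outer carnitine palmitoyltransferase, carried several symbols, so no value is given for it. All 9 had means above 5.21, the middle value of the array's log2 signals averaged over the hearts, and entered the test of 13650 probe sets.

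The study compared 9 snap-frozen hearts, each on its own array, from mice that were 2 months old. The genotypes were wild type (3 hearts), Col4a3-/- (3 hearts, a knockout of the alpha 3 chain of type IV collagen and a mouse model of Alport syndrome) and Col4a3-/-OPN-/- (3 hearts, which lacked Col4a3 and also osteopontin, a secreted matrix glycoprotein encoded by Spp1). The Col4a3 knockout is therefore shared by both mutant groups, and there were no hearts lacking osteopontin alone. Strain and sex are not given in the sources used here. The series title names preserved-ejection-fraction heart failure and an osteopontin-mitochondria axis, which the genes below bear on as mitochondrial enzymes.

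The adult heart draws much of its energy from long-chain fatty acids. These enter the mitochondrial matrix as carnitine esters, through carnitine palmitoyltransferases and the carnitine-acylcarnitine carrier, and are shortened in a spiral of reactions: an acyl-CoA dehydrogenase inserts a double bond, a hydratase and a second dehydrogenase add water and oxidise the product, and a thiolase cleaves off acetyl-CoA. The nuclear receptor PPAR-alpha and the oestrogen-related receptors, with the coactivator PGC-1 alpha, are known activators of these genes in heart muscle.

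Array medians ran from 5.18 to 5.24 and no 2 arrays held identical values. Col4a3-/- replicate 3 stood apart, with a mean Pearson's r of 0.943 with the other arrays, against 0.965 to 0.977 for the other arrays. The hearts of a genotype had a mean r with each other of 0.942 to 0.955 in Col4a3-/- and 0.980 to 0.985 in the other groups, while the test below assumes 1 spread for all 3. Col4a3, a check on the labels, gave signals from 4.87 to 5.52 over all hearts, near the array medians, and its groups overlapped, so it separated no genotype. No probe set carried Spp1 as its single symbol, so the osteopontin knockout was not checked. Xist, the RNA of the inactive X chromosome, was high in Col4a3-/- replicates 1 (7.59) and 3 (8.50) and in Col4a3-/-OPN-/- replicate 2 (8.56) and lay between 4.52 and 4.77 in the other hearts. No wild type heart thus had the female pattern, and sex and genotype were partly confounded. Cardiomyocyte markers were all measured (11 of 11 genes), and their mean per heart was 11.88 to 11.94 in wild type, 11.70 to 11.96 in Col4a3-/- and 11.90 to 11.94 in Col4a3-/-OPN-/-.

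In Col4a3-/- hearts the 9 genes had lower means than in wild type, and in Col4a3-/-OPN-/- hearts they had higher means than in Col4a3-/-. Neither comparison gave a gene that passed the adjusted threshold. In Col4a3-/- minus wild type all 9 log2 differences were negative, with a median of -0.15 beside -0.023 over all tested probe sets, of which 55% were negative. By limma with Benjamini-Hochberg adjustment over all 13650 probe sets at 0.05, 0 of 9 genes passed, and the share of all probe sets that passed was 0%. At an unadjusted limma p under 0.05, 2 of the 9 genes were lower (Hadhb and Acadvl), against 5.96% of all probe sets. In 4 of the 9 genes every Col4a3-/- heart lay below every wild type heart, against 7.9% of all probe sets.

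In Col4a3-/-OPN-/- minus Col4a3-/- all 9 log2 differences were positive, with a median of 0.20 beside 0.043 over all tested probe sets, of which 57.7% were positive. Again 0 of 9 genes passed the adjusted limma threshold, and 0.044% of all probe sets did (6 probe sets). Leaving out 1 heart moved that count of 6 to 22 (without Col4a3-/- replicate 2), 11 (Col4a3-/- 1), 2 (Col4a3-/- 3), 1 (wild type 3) or 0 (Col4a3-/-OPN-/- 1). At an unadjusted limma p under 0.05, 5 genes were higher (Hadhb, Acadvl, Ech1, Hadha and Acadm), against 8.58% of all probe sets. In the same 5 genes every Col4a3-/-OPN-/- heart lay above every Col4a3-/- heart, against 10.1% of all probe sets. The 2 comparisons share the Col4a3-/- hearts, so a low reading in those hearts enters both with opposite sign.

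**Figure D1:**
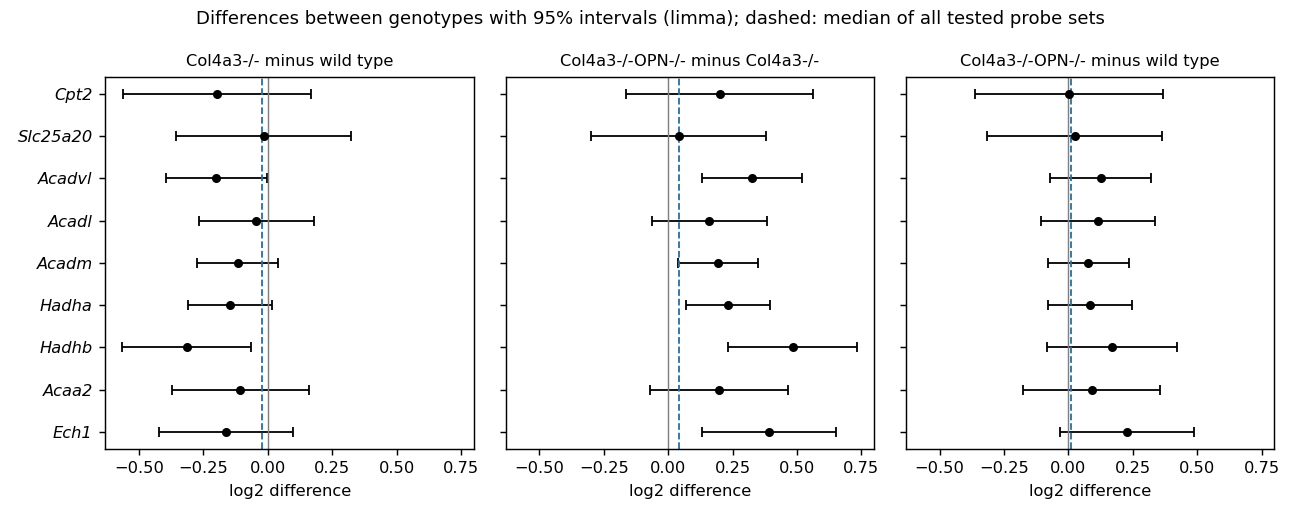
Log2 difference of each gene in the 3 comparisons between genotypes, with the 95% confidence interval from the limma fit. The median difference of the 9 genes was -0.15 for Col4a3-/- minus wild type, 0.20 for Col4a3-/-OPN-/- minus Col4a3-/- and 0.090 for Col4a3-/-OPN-/- minus wild type.

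A moderated F-test in limma for any difference among the 3 genotypes passed for 0 of 9 genes, with 0.0147% of all probe sets passing (2 of 13650). Its unadjusted p was under 0.05 for 4 of the 9, against 9.3% of all probe sets. The lowest was that of Hadhb, at 0.0044 (adjusted p = 0.329). Hadha, Hadhb, Acadm and Acadvl had all Col4a3-/- hearts below all hearts of both other genotypes, an arrangement held by 4.01% of all tested probe sets.

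The carnitine shuttle was represented by Cpt2, the inner-membrane palmitoyltransferase that returns the acyl group to CoA, and by Slc25a20, the carrier that exchanges acylcarnitine for carnitine. Cpt2 had log2 signals of 10.07, 10.14 and 10.15 in wild type hearts 1 to 3, 10.16, 10.09 and 9.51 in Col4a3-/- hearts and 10.001, 10.06 and 10.30 in Col4a3-/-OPN-/- hearts. The genotypes overlapped, and the low reading was that of Col4a3-/- replicate 3. The log2 difference between Col4a3-/- and wild type was -0.20 (SE 0.165; limma adjusted p = 0.770), and without that heart it was 0.0076. Col4a3-/-OPN-/- minus Col4a3-/- was 0.20 (adjusted p = 0.623), and -0.0052 without the same heart.

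Slc25a20 read 9.88, 9.96 and 9.92 in wild type, 9.86, 9.66 and 10.20 in Col4a3-/- and 9.71, 9.97 and 10.15 in Col4a3-/-OPN-/- hearts. Its genotypes overlapped, and its spread was wider in both mutant groups (SD 0.27 and 0.22) than in wild type (SD 0.037). It had the smallest differences of the 9 genes in both comparisons with Col4a3-/-, at -0.016 (SE 0.154; limma adjusted p = 0.984) against wild type and 0.040 (95% interval -0.30 to 0.38) for Col4a3-/-OPN-/- minus Col4a3-/-. Without Col4a3-/- replicate 2 the values were 0.11 and -0.084. The first was also above 0 without wild type replicate 2 (0.0024) or Col4a3-/- replicate 1 (0.0044), and the second below 0 without Col4a3-/-OPN-/- replicate 3 (-0.063). The interval still spans changes larger than most measured for the other genes, so it does not show that the carrier was the same in the genotypes.

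The acyl-CoA dehydrogenases divide the substrates by chain length. Acadvl, the very-long-chain enzyme bound to the inner membrane, had log2 signals of 10.38, 10.36 and 10.36 in wild type, 10.18, 10.14 and 10.17 in Col4a3-/- and 10.45, 10.51 and 10.52 in Col4a3-/-OPN-/- hearts. No 2 genotypes overlapped: Col4a3-/- was lowest and Col4a3-/-OPN-/- highest, and the SD within a genotype was 0.011 to 0.037. The difference from wild type in Col4a3-/- was -0.20 (95% interval -0.40 to -0.0051, limma adjusted p = 0.580). Col4a3-/-OPN-/- minus Col4a3-/- was 0.32 (95% interval 0.13 to 0.52, a 1.25-fold difference, adjusted p = 0.198). The SE from the fit (0.088) was larger than the spread seen among its own 3 hearts, because limma draws each probe set's variance towards that of probe sets of like signal.

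Acadm, the medium-chain enzyme, read 12.23, 12.22 and 12.26 in wild type, 12.13, 12.15 and 12.09 in Col4a3-/- and 12.34, 12.23 and 12.38 in Col4a3-/-OPN-/- hearts. The 3 Col4a3-/- hearts lay below the other 6, which overlapped each other. Col4a3-/- minus wild type was -0.12 (SE 0.071, limma adjusted p = 0.673), and Col4a3-/-OPN-/- minus Col4a3-/- was 0.19 (95% interval 0.037 to 0.35, 1.14-fold, adjusted p = 0.302).

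Acadl, the long-chain enzyme, read 11.64, 11.61 and 11.82 in wild type, 11.52, 11.74 and 11.67 in Col4a3-/- and 11.90, 11.65 and 11.86 in Col4a3-/-OPN-/- hearts. All 3 genotypes overlapped, unlike in the other dehydrogenases. Its differences were -0.045 (95% interval -0.27 to 0.18, limma adjusted p = 0.924) and 0.16 (95% interval -0.063 to 0.38, adjusted p = 0.522), and the first was 0.015 without Col4a3-/- replicate 1 and 0.020 without wild type replicate 3. The second was 0.099 without Col4a3-/- replicate 1 and 0.082 with the signal of Y-linked genes as a covariate.

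**Figure D2:**
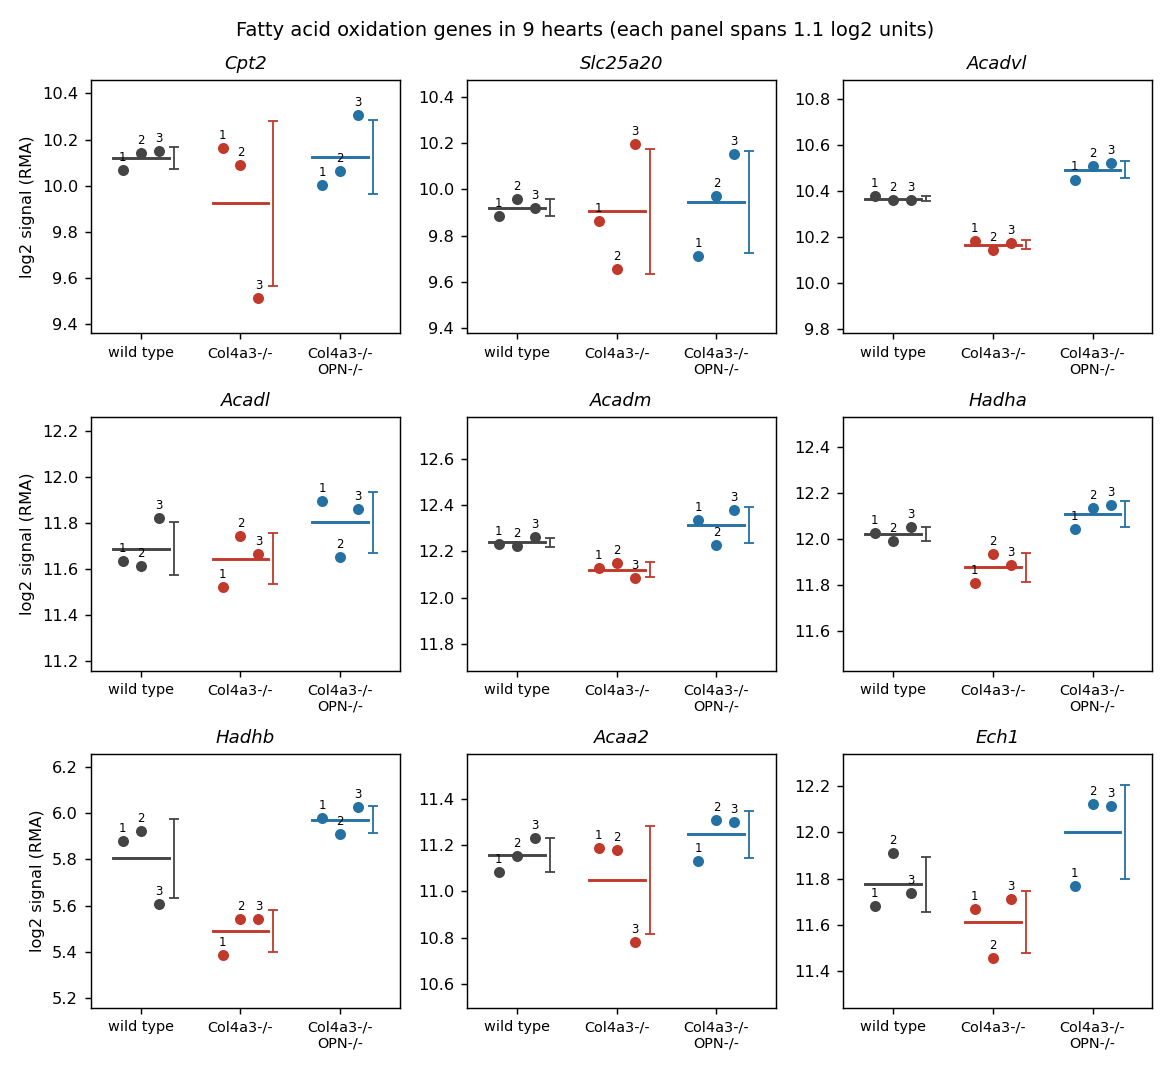
Log2 signal of each of the 9 genes in each heart, 1 panel per gene, with points for the 3 hearts of a genotype and a line at their mean. In Hadha, Hadhb, Acadm and Acadvl the 3 Col4a3-/- hearts lie below the other 6 hearts, and in the other 5 genes the genotypes overlap in at least 1 of the comparisons with Col4a3-/-.

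The mitochondrial trifunctional protein carries out the later steps on long-chain substrates. Its alpha subunit, encoded by Hadha, holds the hydratase and the 3-hydroxyacyl-CoA dehydrogenase, and its beta subunit, encoded by Hadhb, holds the thiolase. Hadha read 12.03, 11.99 and 12.05 in wild type, 11.81, 11.94 and 11.89 in Col4a3-/- and 12.04, 12.13 and 12.15 in Col4a3-/-OPN-/- hearts. Col4a3-/- hearts were below all others, while the other genotypes overlapped. Col4a3-/- minus wild type was -0.15 (SE 0.074, limma adjusted p = 0.632), and Col4a3-/-OPN-/- minus Col4a3-/- was 0.23 (95% interval 0.067 to 0.39, 1.17-fold, adjusted p = 0.259).

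The mean of Hadhb was 0.54 above the level for testing, the lowest of the 9 genes. Its Col4a3-/- signals lay near the array medians of 5.18 to 5.24, so its differences were measured close to background. Its log2 signals were 5.88, 5.92 and 5.61 in wild type, 5.39, 5.54 and 5.54 in Col4a3-/- and 5.98, 5.91 and 6.03 in Col4a3-/-OPN-/- hearts. The 3 Col4a3-/- hearts were again the lowest, and wild type replicate 3 was the nearest to them. Hadhb had the largest differences of the 9 genes in both comparisons, at -0.31 against wild type (SE 0.114, 95% interval -0.57 to -0.064, limma adjusted p = 0.506) and 0.48 for Col4a3-/-OPN-/- minus Col4a3-/- (95% interval 0.23 to 0.73, 1.40-fold, adjusted p = 0.156). In the latter comparison it ranked 113 by p among the 13650 probe sets, Acadvl ranked 257 and Ech1 409.

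Hadha and Hadhb lie head to head on mouse chromosome 5, with start sites 273 bases apart (RefSeq, GRCm38.p6), and Hadha is read from the minus strand. The stretch between the start sites, chr5:30154981-30155252 on the plus strand, is shown because both subunits, which had Col4a3-/- as their lowest genotype, are read outwards from it. The promoters of Acadvl (chr11:70015429-70015678, minus strand) and Acadm (chr3:153944644-153944893, minus strand), the other genes with that arrangement, are shown as the 250 bases before the start site. Capitals mark the nuclear receptor half-site AGGTCA, or TGACCT where it lies on the opposite strand.
Hadha-Hadhb: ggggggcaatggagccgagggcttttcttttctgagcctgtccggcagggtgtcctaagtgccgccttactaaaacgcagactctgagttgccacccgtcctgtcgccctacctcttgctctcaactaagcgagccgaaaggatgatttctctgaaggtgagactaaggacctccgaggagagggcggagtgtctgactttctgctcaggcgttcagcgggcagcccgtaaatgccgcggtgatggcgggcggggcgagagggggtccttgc
Acadvl: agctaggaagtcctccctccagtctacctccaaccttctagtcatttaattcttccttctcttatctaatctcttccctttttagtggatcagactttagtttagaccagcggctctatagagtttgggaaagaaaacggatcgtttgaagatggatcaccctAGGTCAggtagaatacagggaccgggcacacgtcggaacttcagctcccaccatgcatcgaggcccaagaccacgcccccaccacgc
Acadm: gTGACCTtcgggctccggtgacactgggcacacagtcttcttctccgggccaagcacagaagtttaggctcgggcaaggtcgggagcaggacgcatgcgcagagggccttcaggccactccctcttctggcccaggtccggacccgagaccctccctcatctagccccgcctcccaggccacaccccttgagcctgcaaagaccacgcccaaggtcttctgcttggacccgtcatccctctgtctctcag

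The Hadha-Hadhb stretch has a GC content of 60.3% and no half-site. Acadvl has 1 half-site, 87 bases before its start, and Acadm has 1 at 249 bases before its start. Windows on 1 chromosome were set aside for the 10 genes, though not for the promoter windows of all genes, and 8 of the 10 then had a window. Of the 8, 2 held AGGTCA on either strand in the 250 bases before the start, against 14.0% of all 32851 promoter windows. The direct repeat AGGTCANAGGTCA was in 0 of the 8 and 0.0335% of all windows, and TNAAGGTCA, an oestrogen-related receptor element, was in 0 of the 8 and 1.14% of all windows. Both longer motifs contain the half-site, and a match of letters describes the sequence without showing binding.

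Acaa2, the mitochondrial 3-ketoacyl-CoA thiolase of the shorter chains, read 11.09, 11.15 and 11.23 in wild type, 11.19, 11.18 and 10.78 in Col4a3-/- and 11.13, 11.31 and 11.30 in Col4a3-/-OPN-/- hearts. The low reading was again that of Col4a3-/- replicate 3, and the genotypes overlapped. Col4a3-/- minus wild type was -0.11 (SE 0.121, limma adjusted p = 0.834) with all hearts and 0.027 without that heart. Col4a3-/-OPN-/- minus Col4a3-/- was 0.20 (adjusted p = 0.506) with all hearts and 0.063 without it.

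Ech1, an isomerase that prepares certain unsaturated fatty acids for the spiral, read 11.68, 11.91 and 11.74 in wild type, 11.67, 11.46 and 11.71 in Col4a3-/- and 11.77, 12.12 and 12.12 in Col4a3-/-OPN-/- hearts. Col4a3-/-OPN-/- lay above Col4a3-/- in every heart, and wild type overlapped both. Col4a3-/-OPN-/- minus Col4a3-/- was 0.39 (95% interval 0.13 to 0.65, 1.31-fold, limma adjusted p = 0.239), and Col4a3-/- minus wild type was -0.16 (SE 0.118, adjusted p = 0.735). The latter was -0.086 without Col4a3-/- replicate 2, -0.097 without wild type replicate 2 and -0.32 with the signal of Y-linked genes as a covariate.

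Col4a3-/-OPN-/- minus wild type shares its hearts with the comparisons above. Its 9 log2 differences were all positive, with a median of 0.090 beside 0.011 over all tested probe sets, of which 53.1% were positive. By limma 0 of 9 genes passed the adjusted threshold, and 0% of all probe sets did. None of the 9 had an unadjusted p under 0.05, against 1.89% of all probe sets that were higher at that p. Acadvl was the 1 gene with all Col4a3-/-OPN-/- hearts above all wild type hearts (7.55% of all probe sets), with a difference of 0.12 (95% interval -0.070 to 0.32). Ech1 had the largest difference, 0.23 (95% interval -0.034 to 0.49), and Cpt2 the smallest, 0.0024 (95% interval -0.36 to 0.37). These intervals do not show that the levels were the same.

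Each gene was next set against its own mean over the 9 hearts, and these deviations were averaged over the 9 genes for each heart. The average was -0.011, 0.035 and 0.020 in wild type hearts 1 to 3. It was -0.12, -0.12 and -0.16 in Col4a3-/- hearts, and 0.039, 0.10 and 0.21 in Col4a3-/-OPN-/- hearts. The 3 Col4a3-/- hearts were thus the lowest of the 9, and Col4a3-/-OPN-/- replicates 2 and 3 the highest. Of the 9 genes, 5, 6 and 6 were above their own mean in wild type hearts, 2, 3 and 1 in Col4a3-/- hearts and 5, 8 and 9 in Col4a3-/-OPN-/- hearts.

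**Figure D3:**
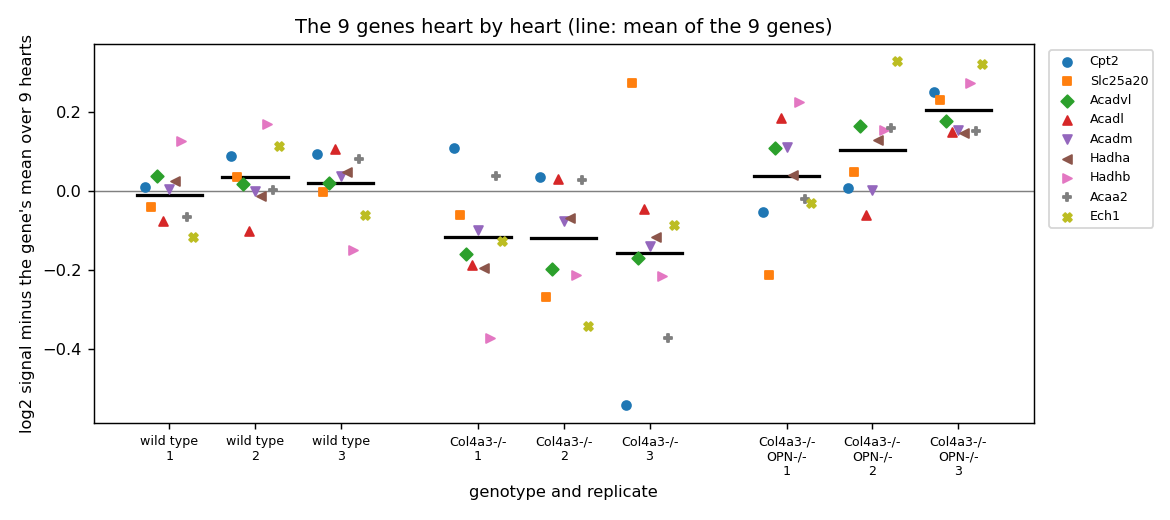
Log2 signal of each of the 9 genes in each heart minus the mean of that gene over the 9 hearts, with a line at the mean of the 9 genes. The line lies at -0.16 to -0.12 in Col4a3-/- hearts and at 0.039 to 0.21 in Col4a3-/-OPN-/- hearts, and Cpt2 and Acaa2 are lowest in Col4a3-/- replicate 3, where Slc25a20 is highest.

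The genes differed in how closely they followed this shared course. Over the 9 hearts, Pearson's r with the mean of the other 8 genes was 0.93 for Acadvl, 0.89 for Hadha, 0.87 for Acadm, 0.76 for Ech1 and 0.75 for Hadhb. It was 0.58 for Acaa2, 0.44 for Cpt2, 0.39 for Acadl and 0.084 for Slc25a20. All of these describe 9 hearts that share 3 genotypes, so differences between genotypes are contained in them. Of the 36 pairs of genes, 32 had a positive r over the 9 hearts, with a median of 0.51. With each genotype centred on its own mean, 21 pairs were positive and the median was 0.046.

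Some pairs kept their r within genotypes and others did not. Hadha and Acadvl had an r of 0.92 over the 9 hearts and 0.26 within genotypes, and the trifunctional subunits Hadha and Hadhb had 0.83 and 0.048. Cpt2 and Acaa2 had 0.91 and 0.92, and Col4a3-/- replicate 3 was the lowest heart for both. Acadvl and Ech1 had 0.82 and 0.75, and Acadm and Acadl 0.73 and 0.69. The lowest r over the 9 hearts was that of the shuttle members Cpt2 and Slc25a20, at -0.29, and the lowest within genotypes was that of Acadl and Ech1, at -0.57.

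Markers of other cells also differed between the genotypes or between single hearts. In such whole-tissue samples, fewer cells of a type and less RNA per cell cannot be told apart. The mean of the smooth muscle markers (4 of 4 measured) was 7.04 to 7.55 in Col4a3-/- hearts, 8.30 to 8.46 in wild type and 8.15 to 8.42 in Col4a3-/-OPN-/-, without overlap between Col4a3-/- and the others. Against wild type 4 of 4 were lower at an unadjusted limma p under 0.05 (5.96% of all probe sets). In 4 of 4 the hearts did not overlap (7.9%). Between the mutants 3 of 4 were higher at that p (8.58%), and 1 passed the adjusted threshold (limma adjusted p = 0.010), beside 0.044% of all probe sets. Atrial markers (6 of 6 measured) had means of 8.70 to 9.99 in Col4a3-/-, 10.21 to 10.41 in wild type and 9.97 to 10.12 in Col4a3-/-OPN-/- hearts. At the same p, 6 of 6 were lower against wild type and 5 of 6 higher between the mutants, beside 5.96% and 8.58% of all probe sets. Endothelial markers (6 of 6 measured) had means of 8.21 to 8.72 in Col4a3-/-, 8.66 to 8.74 in wild type and 8.62 to 8.93 in Col4a3-/-OPN-/- hearts. At an unadjusted limma p under 0.05, 2 of 6 were lower in Col4a3-/- than in wild type, beside 5.96% of all probe sets. Between the mutants 6 of 6 differences were positive, beside 57.7% of all probe sets. Macrophage markers (6 of 6 measured) had means of 7.69 to 8.30 in Col4a3-/-, 7.57 to 7.76 in wild type and 7.52 to 7.99 in Col4a3-/-OPN-/- hearts, which overlapped. In Col4a3-/- minus wild type 4 were positive and 2 negative, and 2 of 6 were higher at that p, beside 2.39% of all probe sets. Between the mutants 2 were positive and 4 negative. Cd14, a monocyte receptor named after its values were seen, had 1.05 against wild type and -1.05 between the mutants (adjusted p = 0.508 and 0.303). The part of these cell types in the readings of the 9 genes was not tested. Ventricular and general cardiomyocyte markers had median differences of -0.016 and 0.050 in the comparisons of Col4a3-/- with wild type and of Col4a3-/-OPN-/- with Col4a3-/-. The part of cardiomyocyte content in the readings of the 9 genes was likewise not tested.

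Other tissues differed between single Col4a3-/- hearts. Liver markers (all 5 measured, 4 above the level for testing) had a mean over the 5 of 7.51 in Col4a3-/- replicate 3. It was 5.51 to 5.83 in the other hearts. That heart also had the low Cpt2 and Acaa2 readings. The mean of the 11 cardiomyocyte markers was 11.70 there and 11.88 to 11.96 in the others. Among these, the cardiac actin Actc1 was 12.17 there and 12.87 to 12.94 in the others, and Myl2, Myl3 and Pln were also lowest there. Mb (12.32), Myh6 (12.21) and Atp2a2 (12.82) lay between their values in Col4a3-/- replicates 1 and 2. Airway markers (all 5 measured, 3 above that level) had a mean over the 5 of 8.30 in Col4a3-/- replicate 2 and 5.09 to 6.47 elsewhere. Without both of these hearts, which leaves 1 Col4a3-/- heart whose spread is taken from the other groups, the median of the 9 genes was -0.11 against wild type and 0.28 between the mutants. Acadvl was then -0.18 and 0.31, and Hadhb -0.42 and 0.59.

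Brown fat, a tissue rich in the same enzymes, was followed because it can adhere to a dissected heart. Its 6 markers, all measured, had a mean of 7.87, 10.02 and 7.86 in Col4a3-/- hearts, 8.44 to 8.89 in wild type and 8.14 to 8.68 in Col4a3-/-OPN-/- hearts. Ucp1, its uncoupling protein, was 11.06 in Col4a3-/- replicate 2 and 4.79 and 5.03 in replicates 1 and 3. The markers Cox7a1 and Cox8b were highest in Col4a3-/- replicate 1 (12.25 and 11.85), where Ucp1 was low. They read 11.37 or more in every heart, so they did not set the hearts apart as Ucp1 did. The mean of the 6 markers was highest in Col4a3-/- replicate 2, the heart of highest Ucp1. With that mean as a covariate, the median differences of the 9 genes were -0.14 for Col4a3-/- minus wild type and 0.22 for Col4a3-/-OPN-/- minus Col4a3-/-. The 3 measured Y-linked genes had a mean of 7.19 to 7.36 in wild type, 4.53 to 7.003 in Col4a3-/- and 4.63 to 7.40 in Col4a3-/-OPN-/- hearts. With it as a covariate the medians were -0.13 and 0.18, and the differences of Acadvl were -0.22 and 0.34. Without the 3 hearts of high Xist, 1 Col4a3-/- heart remained, replicate 2, which had the highest airway and brown fat means. The median was then -0.088 against wild type and 0.21 between the mutants.

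The genes around the pathway were described from 8 lists, of which 65 of 72 genes were tested. In these lists, as in those of markers, a gene was represented by its probe set of highest mean signal. By limma 0 of 65 passed the adjusted threshold in any of the 3 comparisons. In Col4a3-/- minus wild type, 6 were lower and 0 higher at an unadjusted p under 0.05, beside 5.96% and 2.39% of all probe sets. In Col4a3-/-OPN-/- minus Col4a3-/-, 10 were higher and 1 lower, beside 8.58% and 5.03% of all probe sets. The median differences over the 65 genes were -0.074 and 0.11.

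Upstream of the shuttle, fatty acid uptake and activation genes (8 of 11 tested) had median differences of 0.057 and 0.053. The fatty acid transporter Slc27a1 had the lowest value against wild type, -0.36, and the highest between the mutants, 0.57 (limma adjusted p = 0.646 and 0.286). Fabp3, the heart fatty acid binding protein, had 0.26 and -0.20. Carnitine and malonyl-CoA control (7 of 7 tested) had medians of -0.15 and 0.25, with Cpt1a, the liver form of the outer palmitoyltransferase, at -0.34 and 0.47 (adjusted p = 0.632 and 0.303). Acaca, an acetyl-CoA carboxylase that makes malonyl-CoA, the inhibitor of that enzyme, had 0.45 and -0.20. Its highest reading was that of Col4a3-/- replicate 2, the heart with the highest airway and brown fat means. Col4a3-/- replicates 1 and 3 (6.15 and 6.41) lay below the wild type range of 6.43 to 6.52, so the positive difference from wild type rested on that 1 heart.

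Other mitochondrial beta-oxidation enzymes (11 of 11 tested) had medians of -0.12 and 0.11, with 7 of 11 negative and 7 of 11 positive. Acad9, an acyl-CoA dehydrogenase that also serves complex I assembly, had -0.44 and 0.44 (limma adjusted p = 0.542 and 0.321). Acads, the short-chain dehydrogenase, had -0.15 and 0.12, and Hadh, the short-chain 3-hydroxyacyl-CoA dehydrogenase, had -0.12 and 0.11. Acad10, another acyl-CoA dehydrogenase family member, had 0.16 and -0.39, and Hsd17b10, a hydroxyacyl-CoA dehydrogenase, had 0.16 and -0.18, both opposite in sign to the 9 genes. Acad10 lay near the level for testing (5.21), with means of 5.29 in wild type, 5.44 in Col4a3-/- and 5.06 in Col4a3-/-OPN-/- hearts. The electron transfer flavoprotein and its dehydrogenase, which take up the electrons of the acyl-CoA dehydrogenases, were all tested (3 of 3), and their medians were 0.14 and -0.015. Etfdh, the dehydrogenase, had -0.10 and 0.088, while the flavoprotein subunits Etfa and Etfb had 0.14 and -0.015, and 0.14 and -0.070.

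Peroxisomal beta-oxidation (10 of 12 tested) had medians of -0.10 and 0.29. Abcd3, a peroxisomal fatty acyl-CoA transporter, had 0.56 between the mutants (limma adjusted p = 0.190), and Decr2, the peroxisomal dienoyl-CoA reductase, had -0.60 against wild type (adjusted p = 0.507). Ehhadh, the peroxisomal bifunctional enzyme, had 0.42 against wild type and -0.20 between the mutants (adjusted p = 0.752 and 0.813), opposite in sign to the 9 genes. Its high reading was that of Col4a3-/- replicate 3 (7.87), the heart with the liver signal. Replicates 1 and 2 (6.63 each) lay within the wild type range of 6.41 to 6.76. Triglyceride storage and lipolysis (6 of 6 tested) had medians of -0.0019 and 0.11, and Dgat2, an enzyme of triglyceride synthesis, had 0.53 between the mutants (adjusted p = 0.198). Mgll, monoglyceride lipase, had -0.35 and 0.13, and Abhd5, the coactivator of triglyceride lipase, had 0.097 and -0.14.

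**Figure D4:**
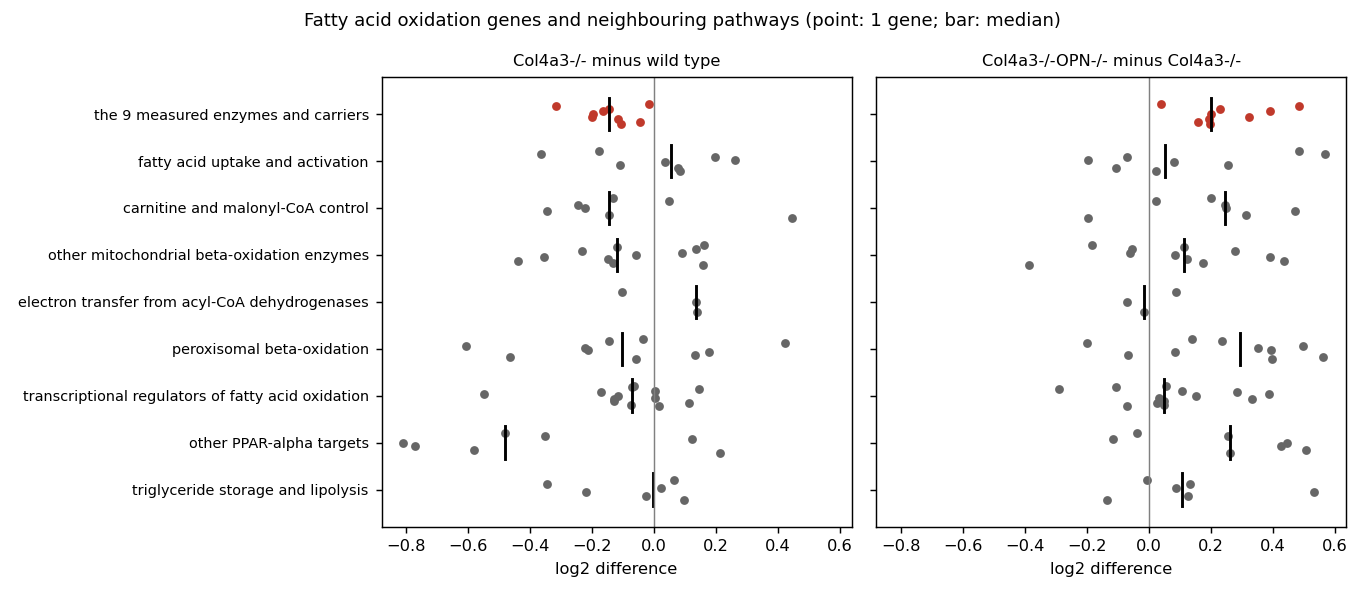
Log2 differences of the 9 fatty acid oxidation genes and of the genes in 8 lists around the pathway, for Col4a3-/- minus wild type and Col4a3-/-OPN-/- minus Col4a3-/-, with 1 point per gene and a line at the list's median. The 9 genes have medians of -0.15 and 0.20 with all points on 1 side of 0, and the other PPAR-alpha targets have the lowest median against wild type, -0.48.

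Among transcriptional regulators of fatty acid oxidation (13 of 13 tested, medians -0.069 and 0.050), Ppargc1a, which encodes PGC-1 alpha, had -0.55 against wild type and 0.39 between the mutants (limma adjusted p = 0.506 and 0.420). Its signals were 10.02, 10.28 and 10.65 in wild type, 9.73, 10.14 and 9.44 in Col4a3-/- and 10.26, 9.99 and 10.23 in Col4a3-/-OPN-/- hearts, and the genotypes overlapped. Ppara, the gene of PPAR-alpha, had 0.0049 and 0.033, and Rxrb, a partner receptor, had 0.15 and -0.29.

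Other PPAR-alpha targets (7 of 9 tested) had medians of -0.48 and 0.26. Pdk4, a kinase that holds back glucose oxidation, had -0.81 and 0.44 with an SE of 0.448 (limma adjusted p = 0.651 and 0.691). Its signals were 11.95, 12.34 and 12.43 in wild type, 10.39, 11.32 and 12.58 in Col4a3-/- and 11.91, 11.30 and 12.42 in Col4a3-/-OPN-/- hearts. Ucp3, a mitochondrial carrier of muscle, was highest in Col4a3-/- replicate 3 (9.87) and Col4a3-/-OPN-/- replicate 3 (9.63) and lay between 7.52 and 9.27 in the other hearts. Those 2 hearts were also the highest for Slc25a20 and for the acyl-CoA thioesterase gene Acot1 (9.04 and 8.53), whose signal may be shared with its near-identical neighbour Acot2. Acot1 had 0.21 and 0.26 in the comparisons and Acot2 -0.58 and 0.51, Ucp3 had -0.48 and -0.039, and Plin2, a lipid droplet protein, had 0.12 and -0.12. Within the 9 genes this pair of hearts differed for other members, since Cpt2 and Acaa2 were lowest in the first and near or at their highest in the second.

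Between Col4a3-/-OPN-/- and wild type, the lowest and highest differences of the lists were -0.028 (Acsl5) and 0.31 (Slc27a4) for uptake and activation, and 0.0017 (Crat) and 0.25 (Acaca) for carnitine and malonyl-CoA control. They were -0.23 (Acad10) and 0.084 (Eci2) for the other mitochondrial enzymes, -0.014 (Etfdh) and 0.12 (Etfa) for electron transfer, and -0.11 (Decr2) and 0.34 (Abcd2) for peroxisomal oxidation. Regulators ran from -0.17 (Rxrg) to 0.20 (Nrip1), other PPAR-alpha targets from -0.52 (Ucp3) to 0.47 (Acot1), and triglyceride genes from -0.21 (Mgll) to 0.31 (Dgat2). None passed the adjusted limma threshold. With the probe set of highest mean signal for each gene, every list but carnitine and malonyl-CoA control held differences of both signs. A fainter tested probe set of Crat was lower in Col4a3-/-OPN-/- (5.96) than in wild type (6.08).

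Among 13076 other tested genes, the 5 whose values over the 9 hearts were most like the mean of the 9 genes were Pla2g4e (Pearson's r 0.956), Acsf2 (0.943), Gm4956 (0.942), Cyp2d22 (0.936) and Slf1 (0.933). Of the pathway lists and markers, the smooth muscle genes Myh11 (0.90, rank 26) and Cnn1 (0.87, rank 65) came first. The highest gene of the pathway lists was Slc27a1 (0.86, rank 75), so the course was not particular to fatty acid genes. Acsf2 encodes a mitochondrial acyl-CoA synthetase family member. It read 6.98, 7.14 and 7.21 in wild type, 6.91, 6.96 and 6.83 in Col4a3-/- and 7.19, 7.20 and 7.61 in Col4a3-/-OPN-/- hearts, so that Col4a3-/- again held the 3 lowest hearts. With each genotype centred on its own mean, the most alike were Decr1 (0.984), Aifm2 (0.979), D2Bwg1423e (0.962), Cebpb (0.956) and Nipsnap2 (0.953). Decr1, the mitochondrial dienoyl-CoA reductase of unsaturated fatty acid oxidation, was measured at 8.85 to 8.89 in Col4a3-/-, 8.88 to 8.996 in wild type and 8.79 to 9.14 in Col4a3-/-OPN-/- hearts, and the genotypes overlapped. These r values are the highest of many over 9 hearts and are a description.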

How the data were processed

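Total RNA of 9 mouse hearts was measured on gene arrays. The deposited values are log2 signals summarised by RMA, per the submitters' processing notes, whose version is not given in the sources used here. A small-RNA labelling kit appears in the labels, although the annotation is that of a mouse gene array, so the labelling is uncertain. Values are relative within a probe set. The level of a probe set served for the filter, for choosing 1 per gene in the lists and for naming signals near background. It was not used to compare amounts between genes, and list means were compared only between hearts. Of 33793 probe sets, 23521 had 1 symbol, 1814 several, and 8458 were not listed. Those with 1 symbol and a mean above 5.21 were tested (13650, for 13085 genes; 13586 had their identifier in the GRCm38.p6 reference table). All 9 arrays entered 1 limma fit (3.58.1 in R 4.3.3, eBayes with trend), with Benjamini-Hochberg adjustment at 0.05; the scripts were tested on simulated data. ± or SD is over 3 hearts and SE is from the fit. Replicates are separate hearts by the labels' counts of mice. An exact permutation test of 3 against 3 cannot go below 0.1, so none was run. The number of arrays limits precision; the median SE was 0.11 for the 9 genes and 0.15 for all.

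Members, lists and rules were chosen with earlier results of these data known. Named genes were the members, each list's highest and lowest difference, fixed pathway genes, and the 5 most alike over hearts and within genotypes. Some cell type markers were named after their values were seen. Alternatives covered normalization, filter, variance model, covariates, the replicate number as a block, and hearts left out.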

Additional observations from a re-analysis of the deposited data

How the results depend on the processing

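In 23 alternatives for each comparison, and 22 for the F-test, 0 of the 9 genes passed the adjusted limma threshold, as in the values reported. The lowest adjusted p over these was 0.325 for Col4a3-/- minus wild type, 0.108 for Col4a3-/-OPN-/- minus Col4a3-/-, 0.611 for Col4a3-/-OPN-/- minus wild type and 0.240 for the F-test. At an unadjusted p under 0.05 the counts ran from 0 to 3, 3 to 6, 0 to 1 and 1 to 5. A filter 1 log2 unit stricter leaves out Hadhb.

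The median difference of the genes kept its sign throughout. Leaving out 1 heart at a time, it ran from -0.18 to -0.12 for Col4a3-/- minus wild type, 0.17 to 0.27 for Col4a3-/-OPN-/- minus Col4a3-/- and 0.064 to 0.14 for Col4a3-/-OPN-/- minus wild type. It was -0.088 against wild type without the 3 hearts of high Xist, an alternative added after the data were seen. That alternative keeps only replicate 2 of the Col4a3-/- hearts, the heart with the highest airway and brown fat means. Between the mutants it was 0.27 with renewed quantile normalization and 0.28 without Col4a3-/- replicates 2 and 3.

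Hadha, Hadhb, Acadm, Acadvl and Ech1 kept their sign in every alternative run, and the genes below turned in some. Leaving out 1 heart at a time, Col4a3-/- minus wild type ran from -0.18 to 0.027 for Acaa2, -0.094 to 0.020 for Acadl, -0.32 to 0.0076 for Cpt2 and -0.16 to 0.11 for Slc25a20. Acaa2, Acadl and Cpt2 turned without Col4a3-/- replicate 3, wild type 3 or Col4a3-/- 1 (0.015), and Col4a3-/- 3, in that order, and Slc25a20 turned without wild type 2 (0.0024), Col4a3-/- 1 (0.0044) or Col4a3-/- 2. Without Col4a3-/- replicates 2 and 3, Acaa2 was 0.032 and Cpt2 0.044. With the high-Xist hearts left out, Acaa2 was 0.023 and Acadl 0.054, and with the Y-linked covariate Acadl was 0.089.

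For Col4a3-/-OPN-/- minus Col4a3-/-, the range was -0.0052 (Col4a3-/- 3 left out) to 0.32 for Cpt2 and -0.084 (Col4a3-/- 2) to 0.19 for Slc25a20, which was also -0.063 with Col4a3-/-OPN-/- 3 left out. Cpt2 was -0.042 with Col4a3-/- replicates 2 and 3 left out. For Col4a3-/-OPN-/- minus wild type, the range was -0.089 (Col4a3-/-OPN-/- 3) to 0.063 for Cpt2, which was -0.024 with wild type 1 left out, and -0.079 (Col4a3-/-OPN-/- 3) to 0.14 for Slc25a20. Slc25a20 was -0.039 with the Y-linked covariate and -0.012 with the brown fat covariate. Beyond what fewer samples do by construction, the cause was not tested.

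With the replicate number as a block, 0 of the 9 genes passed, the medians were -0.15 and 0.20, and the lowest adjusted p in limma was 0.219, for Hadhb in Col4a3-/-OPN-/- minus Col4a3-/-. Of 9 same-numbered pairs, 2 had a correlation of deviations over 0.1, with a range of -0.19 to 0.23. Those 2 were pairs of replicate 3 (0.14 and 0.23). Pairs with different numbers were not examined, so these values do not settle whether the numbers pair the hearts. Over all probe sets, Col4a3-/-OPN-/- minus Col4a3-/- had 0 calls in place of 6 with the block and also with the Y-linked covariate. It had 2 with array weights or the stricter filter.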
